A study of Rattus norvegicus with 6 samples.

Results

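The circadian clock genes examined here are 10 core components and direct outputs of the cell's daily oscillator: Per1, Per2, Per3, Cry1, Cry2, Dbp, Tef, Nr1d1, Nr1d2 and Clock. A member was read from a probe set naming only that gene (the brightest on average over the 6 arrays, had there been several). By this rule 9 of the 10 members were found among 18166 genes, each through 1 probe set, and Nr1d2 was not found. All 9 lay above the median of their array on all 6 arrays.

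RNA from cerebral arteries of male rats was hybridised to Affymetrix arrays, 1 sample to an array, starting from 6 µg of total RNA. The SAH group had arteries from rats 6 hours into a subarachnoid haemorrhage, in which blood enters the space between the brain and its coverings (SAH arrays 1, 4 and 5). The sham group had arteries of sham-operated rats (sham arrays 6, 7 and 8). The labels give no strain, age or genotype, no hour for the sham samples, and no time of day for surgery or tissue collection in either group, so the hour of sampling could not be entered into any comparison. They do not say whether every sample is a different rat, so the p-values rest on the spread among samples that may be technical repeats.

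In the mammalian clock, a pair of transcription factors, CLOCK (or its relative NPAS2) and BMAL1, binds E-box sequences and switches on the Per and Cry genes. PER and CRY proteins then enter the nucleus and inhibit CLOCK and BMAL1, which closes the loop over about a day. A second loop joins it: the same pair drives Nr1d1 and Nr1d2, whose products REV-ERB alpha and beta repress Bmal1, while the ROR receptors activate it through the same site. Dbp and Tef encode PAR bZIP factors that carry the rhythm to D-box genes. Arterial smooth muscle and endothelium hold such clocks, and in most rat tissues Bmal1 and the Dbp, Per3 and Nr1d1 transcripts peak at opposite phases of the day.

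RefSeq promoter windows of GRCr8, from 250 bases before to 50 after a transcript start, were read for these genes, since Dbp, Tef, Nr1d1, Per2 and Bmal1 are known to be tied through E-boxes and REV-ERB and ROR elements. They were found for 9 of the 10 members, 8 of them measured. The only windows of Per1, Per3 and Tef lay inside their annotated genes, so the sequence before those genes was not read. Both strands were searched for the E-box CACGTG, the variant E-box CACGTT, the D-box as TTATGTAA or TTACGTAA, the core TAGGTCA of the REV-ERB and ROR element, the cyclic AMP response element TGACGTCA, and the palindromic glucocorticoid response element. No match overlapped another motif in the windows below, and capitals mark each match. The E-box was found in 2 of 9 members (Tef and Nr1d1) and in 6.42% of 33469 promoters of this length, and the variant E-box in 3 of 9 (Per2, Cry2 and Nr1d1) and in 4.83%. The D-box TTATGTAA was found in 1 of 9 (Per2) and in 0.893%. TTACGTAA (0.12% of promoters), the cyclic AMP response element (1.83%), the glucocorticoid response element (0.0149%) and TAGGTCA were found in no member's window.

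Per2 (chr9:99496944-99497243, minus strand) holds a D-box that begins 192 bases before the start and a variant E-box, 62 bases before it. Tef (chr7:115206577-115206876, plus strand) holds an E-box 198 bases before the start. Nr1d1 has windows at 2 starts: the upstream one (chr10:84231763-84232062, minus strand) holds a variant E-box 174 bases before the start, printed on its other strand, and the downstream one (chr10:84229405-84229704, minus strand) holds an E-box 191 bases before it. Bmal1 (chr1:176766078-176766377, plus strand) holds the REV-ERB and ROR core 16 bases before its start, a match found in 2.63% of promoters.
Per2: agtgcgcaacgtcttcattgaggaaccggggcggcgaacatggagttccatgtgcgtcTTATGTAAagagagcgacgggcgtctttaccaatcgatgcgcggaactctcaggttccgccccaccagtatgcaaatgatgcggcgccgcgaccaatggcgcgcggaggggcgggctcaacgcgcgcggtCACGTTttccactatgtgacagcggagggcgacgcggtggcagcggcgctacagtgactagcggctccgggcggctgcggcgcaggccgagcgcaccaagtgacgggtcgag
Tef: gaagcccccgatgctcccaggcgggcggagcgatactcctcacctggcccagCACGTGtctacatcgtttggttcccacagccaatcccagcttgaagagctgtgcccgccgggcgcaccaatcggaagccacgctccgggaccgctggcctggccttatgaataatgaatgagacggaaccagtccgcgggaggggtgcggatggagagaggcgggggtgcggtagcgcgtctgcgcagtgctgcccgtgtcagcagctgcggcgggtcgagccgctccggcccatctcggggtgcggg
Nr1d1 upstream: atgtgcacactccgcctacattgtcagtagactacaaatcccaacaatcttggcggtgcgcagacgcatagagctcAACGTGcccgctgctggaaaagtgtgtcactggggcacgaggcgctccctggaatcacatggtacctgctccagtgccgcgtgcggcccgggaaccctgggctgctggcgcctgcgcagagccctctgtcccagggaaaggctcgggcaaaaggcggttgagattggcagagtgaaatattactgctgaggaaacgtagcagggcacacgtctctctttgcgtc
Nr1d1 downstream: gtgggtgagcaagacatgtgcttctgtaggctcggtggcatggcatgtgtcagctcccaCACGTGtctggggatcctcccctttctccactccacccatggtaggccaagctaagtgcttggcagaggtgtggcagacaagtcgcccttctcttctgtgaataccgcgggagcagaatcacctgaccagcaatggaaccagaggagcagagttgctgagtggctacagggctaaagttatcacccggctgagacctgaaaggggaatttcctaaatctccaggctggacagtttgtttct
Bmal1: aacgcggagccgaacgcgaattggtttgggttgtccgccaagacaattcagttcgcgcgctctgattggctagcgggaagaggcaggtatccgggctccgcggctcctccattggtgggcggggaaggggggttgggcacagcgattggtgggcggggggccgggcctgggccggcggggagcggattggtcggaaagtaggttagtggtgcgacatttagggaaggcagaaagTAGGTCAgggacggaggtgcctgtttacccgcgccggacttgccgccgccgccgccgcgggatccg

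Values are log2 expression values as deposited, so a difference of 1 is a doubling. The arteries carried strong smooth muscle signal: all 5 measured markers of that list lay above the array median on every array, and Tagln, an actin-binding protein of smooth muscle, stood between 13.43 and 13.44 in SAH arrays and between 13.52 and 13.63 in sham arrays. All 5 read lower on average after SAH, with a median difference of -0.40. For 4 of them (Tagln, Myh11, Des and Smtn) every SAH value lay below every sham value, as it did for 15.4% of all genes. Of the 5, only Smtn, which encodes the actin-associated protein smoothelin and is named here after its values were seen, passed the threshold used below (limma adjusted p under 0.05), where 0.33% of all genes fell. Smtn read 10.35, 10.23 and 10.02 in SAH arrays 1, 4 and 5, against 11.40, 11.54 and 11.21 in sham arrays 6, 7 and 8, a difference of -1.18 ± 0.13 (SE; limma adjusted p = 0.0197). In refits made after seeing the data Smtn no longer passed when SAH array 4 (adjusted p = 0.0988) or 5 (0.0701) was left out, nor when sham array 6 (0.125) or 7 (0.108) was. The part of the smooth muscle markers in the clock gene values was not tested. The mean over 4 endothelial markers was 10.1 to 10.3 in SAH arrays and 10.2 to 10.5 in sham arrays, and over 4 fibroblast markers it was 11.7 to 11.9 in SAH arrays and 12.0 to 12.2 in sham arrays. Over 4 glial markers it was 8.11 to 8.85 in SAH arrays and 8.36 to 8.80 in sham arrays. None of the genes in these 3 lists was called. The 4 fibroblast differences (SAH minus sham) were all below 0, from -0.27 to -0.0072, with a median of -0.22. The endothelial and glial means cover genes that differed both ways. Endothelial differences (SAH minus sham) ran from -0.76 to 0.61, with 1 above 0 and 3 below. Glial differences ran from -0.59 to 0.58, with 2 above 0 and 2 below. The mean of 5 neuronal markers ran from 7.19 to 7.81 in SAH arrays and from 7.26 to 7.57 in sham arrays, where array medians lay between 7.31 and 7.37. The mean over 2 measured red cell markers was 6.91 to 7.07 in SAH arrays and 6.68 to 6.89 in sham arrays, with neither marker above the median on any array. Neutrophil markers differed between arrays within both groups. Their mean over 8 of 8 measured genes was 9.46, 9.51 and 10.62 in SAH arrays 1, 4 and 5, against 7.51, 7.74 and 10.06 in sham arrays 6, 7 and 8. Macrophage markers (5 of 5 measured) averaged 9.22, 9.41 and 8.78 in SAH arrays 1, 4 and 5, against 9.83, 9.33 and 10.1 in sham arrays 6, 7 and 8. In such bulk tissue, fewer cells of a type and less RNA per cell cannot be told apart.

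No clock member passed the threshold between SAH and sham arteries. SAH was compared with sham by limma over all 36495 probe sets, and a gene was called at a Benjamini-Hochberg adjusted p under 0.05. Of the 9 members 0 were called, where 1.29% of all genes were. At an unadjusted limma p under 0.05 there were 2 members, Per1 and Cry1, both higher after SAH, where 18.6% of all genes passed and 8.16% passed upward. The SAH and sham values did not overlap for 2 members, Cry1 (SAH above) and Clock (SAH below), against 26.8% of all genes. Upward separation was found for 11.4% of all genes and downward for 15.4%. Taken over both directions, the members' counts lie near these shares of the whole table. The 2 members at an unadjusted limma p under 0.05 make a larger share than the 8.16% of genes passing upward, but they are only 2 genes. The median difference over the 9 members was -0.019, beside -0.013 over all genes, and 4 differences were above 0 and 5 below.

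**Figure D1:**
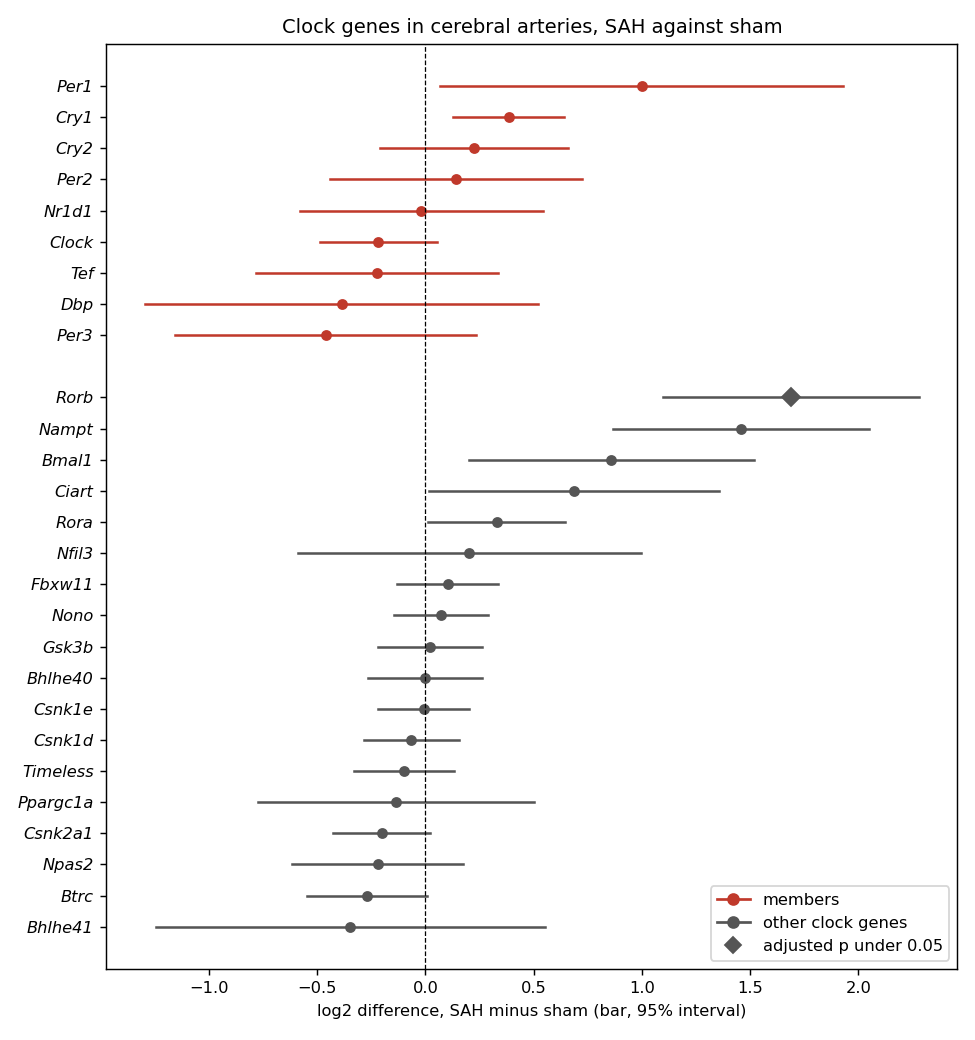
Log2 difference, SAH minus sham, of the 9 clock members (upper block, red) and 18 other genes of the clock pathway (lower block, grey), with 95% intervals from limma over 3 arrays in each group. Diamonds mark an adjusted p under 0.05. Only Rorb carries a diamond, and the members run from Per3 at -0.46 to Per1 at 1.00.

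The Period genes encode the inhibitory PER proteins. Per1, the member most readily induced by hormones and second messengers, read 9.82, 10.56 and 10.78 in SAH arrays 1, 4 and 5, against 9.54, 8.61 and 10.01 in sham arrays 6, 7 and 8. SAH arrays 4 and 5 were above every sham array, but SAH array 1 lay below sham array 8, and sham array 7 was far below the rest. Per1 averaged 10.39 ± 0.51 in SAH and 9.39 ± 0.72 in sham arteries (SD, n = 3 each), a difference of 1.00 ± 0.39 (SE). This was the largest difference among the members, with a 95% interval of 0.07 to 1.93 and a limma adjusted p of 0.311. The estimate leaned on single arrays: it was 0.61 without sham array 7 and 1.31 without sham array 8.

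Per2 read 9.80, 9.61 and 9.03 in SAH arrays 1, 4 and 5, against 9.73, 9.11 and 9.17 in sham arrays 6, 7 and 8. The highest and the lowest of the 6 values both belonged to SAH arrays, so the groups overlapped over the whole sham range. The difference was 0.14 ± 0.25 (SE; 95% interval -0.44 to 0.72; limma adjusted p = 0.852), and it changed sign, to -0.022, without SAH array 1. Per3, the PER family member with the least effect on the core loop in mouse knockouts, read 9.40, 9.14 and 8.34 in SAH arrays 1, 4 and 5, against 9.79, 9.31 and 9.17 in sham arrays 6, 7 and 8. SAH array 5 alone stood apart, 0.80 below the next lowest array, SAH array 4. The Per3 difference was -0.46 ± 0.29 (SE; 95% interval -1.16 to 0.23; limma adjusted p = 0.544), and it shrank to -0.15 without SAH array 5.

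The cryptochromes, CRY1 and CRY2, are the main repressors of CLOCK and BMAL1. Cry1 had the smallest within-group SD of the members when pooled over both groups, though within sham Clock was tighter. It read 8.98, 9.08 and 8.88 in SAH arrays 1, 4 and 5, against 8.72, 8.50 and 8.56 in sham arrays 6, 7 and 8. Every SAH value lay above every sham value. Cry1 averaged 8.98 ± 0.10 in SAH and 8.59 ± 0.11 in sham arteries (SD, n = 3 each), a difference of 0.38 ± 0.11 (SE), or 1.30-fold, with a 95% interval of 0.13 to 0.64. Its unadjusted limma p was 0.00952 and its adjusted p 0.186, which did not pass, and over the alternatives tried the lowest adjusted p was 0.0828. Cry2 read 10.01, 10.30 and 9.64 in SAH arrays 1, 4 and 5, against 9.87, 9.86 and 9.56 in sham arrays 6, 7 and 8. The groups overlapped, and the difference was 0.22 ± 0.18 (SE; 95% interval -0.21 to 0.66; limma adjusted p = 0.649). It was 0.067 without SAH array 4, 0.39 without SAH array 5 and 0.12 without sham array 8.

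Clock, the partner of BMAL1 and a gene whose own transcript usually cycles little, read 10.81, 10.52 and 10.72 in SAH arrays 1, 4 and 5, against 10.83, 11.00 and 10.87 in sham arrays 6, 7 and 8. The SAH values all lay below the sham values, though SAH array 1 and sham array 6 nearly met. The difference was -0.22 ± 0.11 (SE; 95% interval -0.49 to 0.05; limma adjusted p = 0.452), and it shrank to -0.13 without SAH array 4.

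**Figure D2:**
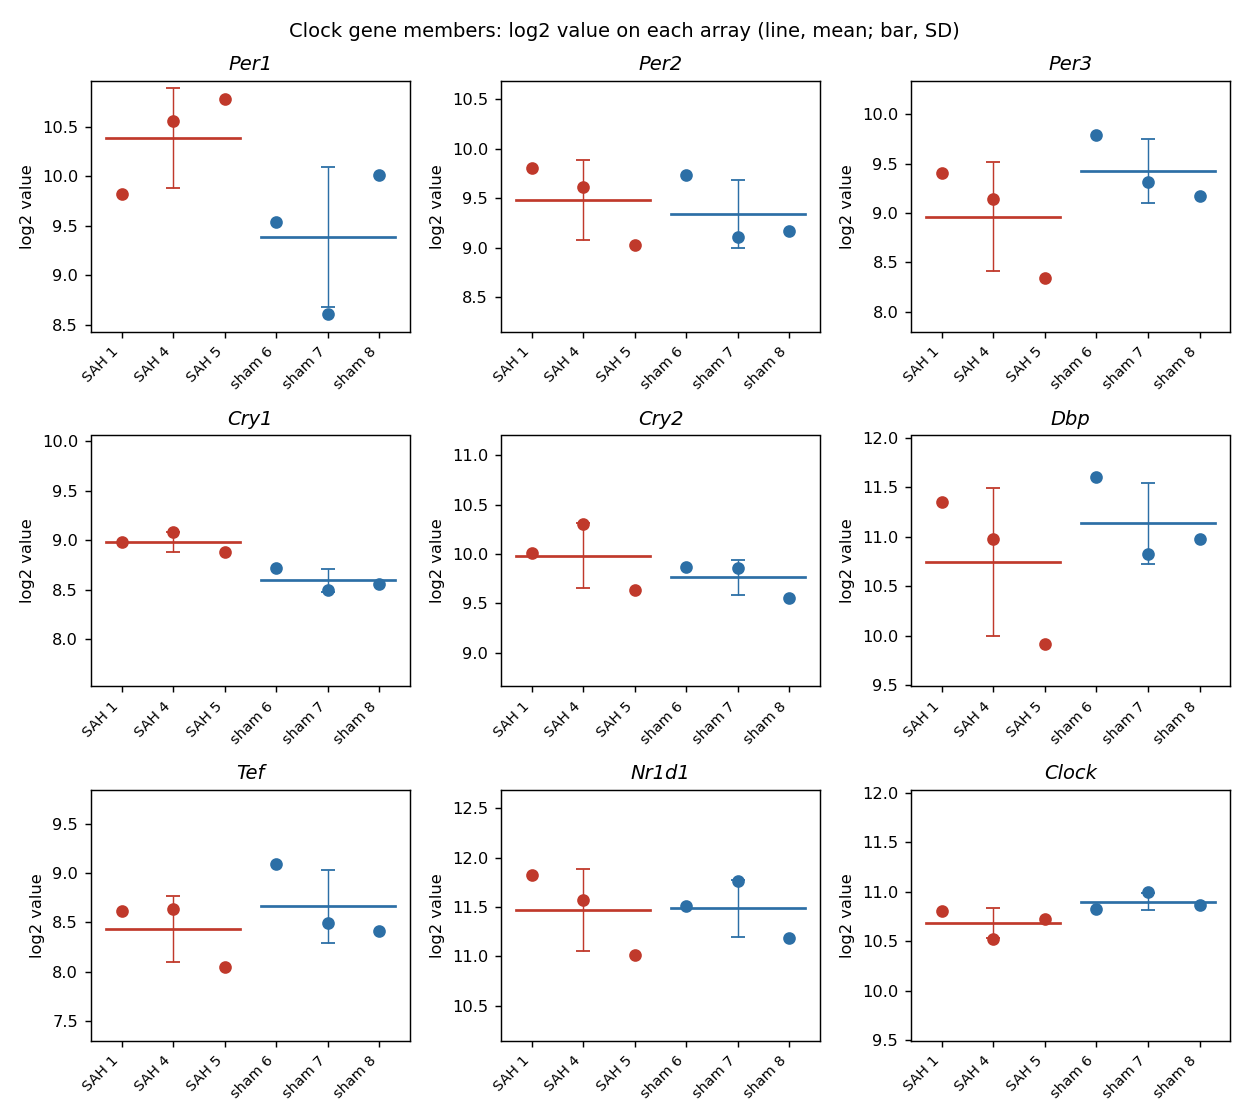
Log2 value of each of the 9 clock members on each array (points), with SAH arrays 1, 4 and 5 in red and sham arrays 6, 7 and 8 in blue, the group mean (line) and the SD over 3 arrays (bar). All panels span the same log2 range. SAH array 5 holds the lowest point of all 6 for Per2, Per3, Dbp, Tef and Nr1d1.

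Dbp, a strongly rhythmic target of CLOCK and BMAL1, read 11.35, 10.98 and 9.91 in SAH arrays 1, 4 and 5, against 11.60, 10.83 and 10.98 in sham arrays 6, 7 and 8. SAH arrays 1 and 4 lay within the sham range and SAH array 5 lay 0.92 below the lowest sham array. Dbp averaged 10.75 ± 0.75 in SAH and 11.13 ± 0.41 in sham arteries (SD, n = 3 each), a difference of -0.39 ± 0.38 (SE; 95% interval -1.30 to 0.52; limma adjusted p = 0.716). Without SAH array 5 the sign turned, to 0.032. Tef, the other PAR bZIP member and one with an E-box in its window, read 8.62, 8.64 and 8.05 in SAH arrays 1, 4 and 5, against 9.09, 8.49 and 8.41 in sham arrays 6, 7 and 8. Sham array 6 was highest and SAH array 5 lowest, as for Dbp. The Tef difference was -0.22 ± 0.24 (SE; 95% interval -0.79 to 0.34; limma adjusted p = 0.734), and it shrank to -0.030 without SAH array 5 and to -0.0079 without sham array 6.

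Nr1d1, which encodes the haem-binding repressor REV-ERB alpha, read 11.82, 11.57 and 11.01 in SAH arrays 1, 4 and 5, against 11.51, 11.76 and 11.19 in sham arrays 6, 7 and 8. The 2 groups spanned nearly the same range, with SAH array 5 again the lowest. The difference was -0.019 ± 0.24 (SE; 95% interval -0.58 to 0.54; limma adjusted p = 0.983), and it turned to 0.21 without SAH array 5 and to 0.12 without sham array 7. In the GRCr8 annotation Nr1d1 (chr10:84224599-84231812) overlaps the end of Thra (chr10:84198141-84225659), a thyroid hormone receptor gene on the other strand, and the sources used here do not say how the probes treat strand.

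The intervals show the range of differences, before adjustment, that 3 arrays in a group leave for each member. Their median half-width over the 9 members was 0.56, against 0.29 over all genes. The Dbp interval therefore leaves room for a level anywhere from 0.407-fold to 1.44-fold of sham. The Cry1 interval was narrower, from 1.09-fold to 1.56-fold. These intervals are not adjusted for the number of probe sets tested. Cry1 did not pass after adjustment (limma adjusted p = 0.186), so its interval does not establish a rise. A p above the threshold does not show that SAH and sham arteries had the same clock gene levels.

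Most members varied widely within the groups. The within-group SD, pooled over SAH and sham, had a median of 0.36 over the 9 members, against 0.14 over all 18166 genes. It ranked above the 90th percentile of all genes for 6 of the 9: Per1 (0.62), Dbp (0.60), Per3 (0.45), Per2 (0.37), Tef (0.36) and Nr1d1 (0.36). Wide spread was not particular to the members: the median was 0.36 over the glucocorticoid targets described below, 0.41 over the glial, 0.44 over the macrophage and 1.08 over the neutrophil markers, and 0.53 over immediate early and CREB target genes. Over the 18 other clock pathway genes it was 0.15, yet 7 of them also ranked above the 90th percentile. Those were Bhlhe41, Nfil3, Ciart, Bmal1, Ppargc1a, Rorb and Nampt. Among the members Cry2 ranked at percentile 85.0, while Clock (0.12) stood at percentile 40.3 and Cry1 (0.11) at percentile 31.3. As background, Dbp, Nr1d1 and the Per transcripts are among the most rhythmic of most tissues, and the Clock transcript among the flattest. The ranking is a description with no test.

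**Figure D3:**
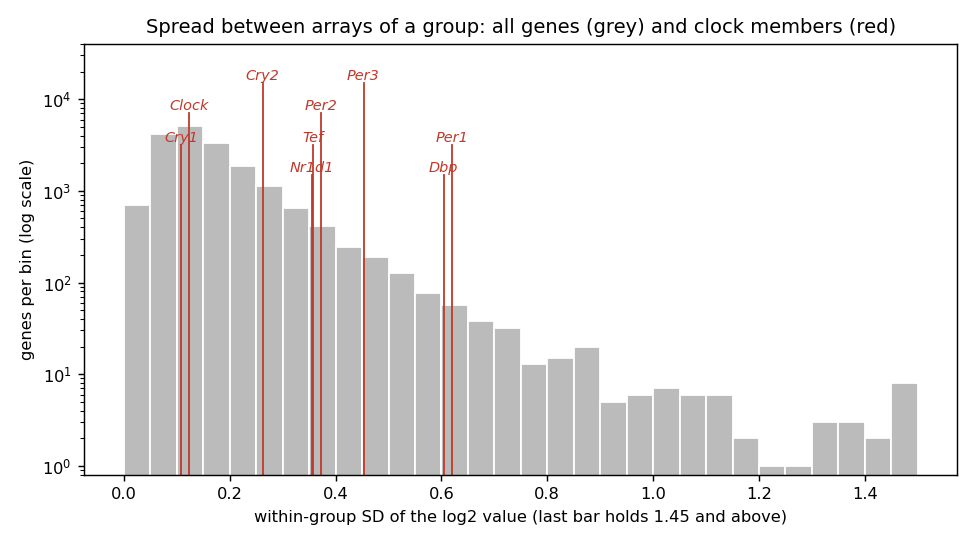
Number of genes (log axis) by within-group SD of the log2 value, pooled over 3 SAH and 3 sham arrays, for all 18166 genes (grey bars). Red lines mark the 9 clock members, whose heights carry no value: Cry1 at 0.11 and Clock at 0.12 lie among the bulk of genes, and Dbp at 0.60 and Per1 at 0.62 lie in the far tail.

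The spread had a shared shape across members. Of the 3 SAH arrays, array 5 held the lowest value for 7 of the 9 members (Per2, Per3, Cry1, Cry2, Dbp, Tef and Nr1d1), where it did so for 31.4% of all genes. The members share the same 6 arrays, so these are not independent counts. Over all 6 arrays it held the lowest value for 5 of the 9, against 22.5% of all genes. Measured from the sham mean, the median of the members stood at 0.25, 0.09 and -0.31 for SAH arrays 1, 4 and 5, against 0.15, -0.11 and -0.17 for sham arrays 6, 7 and 8. The range within either group thus exceeded the median difference between them. Sham array 6 held the highest value for 3 members (Per3, Dbp and Tef). Per1 went the other way, with its highest value in SAH array 5.

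Bmal1, which encodes the partner of CLOCK and whose window holds the REV-ERB and ROR core, had its extremes in the same arrays as Dbp and Per3, but the other way round. It read 8.98, 9.63 and 9.89 in SAH arrays 1, 4 and 5, against 8.28, 9.04 and 8.61 in sham arrays 6, 7 and 8. Its highest value was in SAH array 5, where Dbp was lowest, and its lowest was in sham array 6, where Dbp was highest. The Bmal1 difference was 0.86 ± 0.28 (SE; 95% interval 0.20 to 1.52; limma adjusted p = 0.232), with SAH array 1 inside the sham range. Nfil3, a repressor that competes with Dbp and Tef at D-boxes, had the same extremes as Bmal1: it read 8.50, 8.75 and 9.46 in SAH arrays 1, 4 and 5, against 8.16, 8.70 and 9.24 in sham arrays 6, 7 and 8. Bhlhe41, a repressor at E-boxes, followed Dbp, at 9.41, 9.15 and 7.91 in SAH arrays 1, 4 and 5, against 9.46, 9.12 and 8.93 in sham arrays 6, 7 and 8. Bmal1, Nfil3 and Bhlhe41 were picked after their values were seen, and other genes differed. Npas2 was lowest in SAH array 4 and highest in sham array 7, and Nr1d1 was highest in SAH array 1. Of the SAH arrays, array 5 held the lowest value for 6 of the 18 other clock genes and the highest for 7. It held the lowest for 31.4% of all genes.

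SAH array 5 also stood apart in other respects. It had the highest neutrophil marker mean (10.62) and the lowest macrophage marker mean (8.78) of the 6 arrays. Its mean over 13 immediate early and CREB target genes was 10.50, while SAH arrays 1 and 4 had 9.68 and 9.77 and sham arrays 6, 7 and 8 had 9.64, 9.57 and 10.47. Sham array 8 shared the high neutrophil and immediate early means. Of the sham arrays it had the lowest Per3 (9.17), Tef (8.41), Nr1d1 (11.19), Cry2 (9.56) and Bhlhe41 (8.93) and the highest Per1 (10.01) and Nfil3 (9.24), which are the directions seen in SAH array 5 among the SAH arrays. Dbp, at 10.98, and Bmal1, at 8.61, were not extreme among the sham arrays there. Nor were Per2 (9.17) and Cry1 (8.56), whose lowest sham values were in sham array 7, at 9.11 and 8.50. These genes were picked after their values were seen. The share of all genes with their sham extreme in array 8 was not counted. The part of these cell and stimulus markers in the clock gene values was not tested, nor was the time of day.

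**Figure D4:**
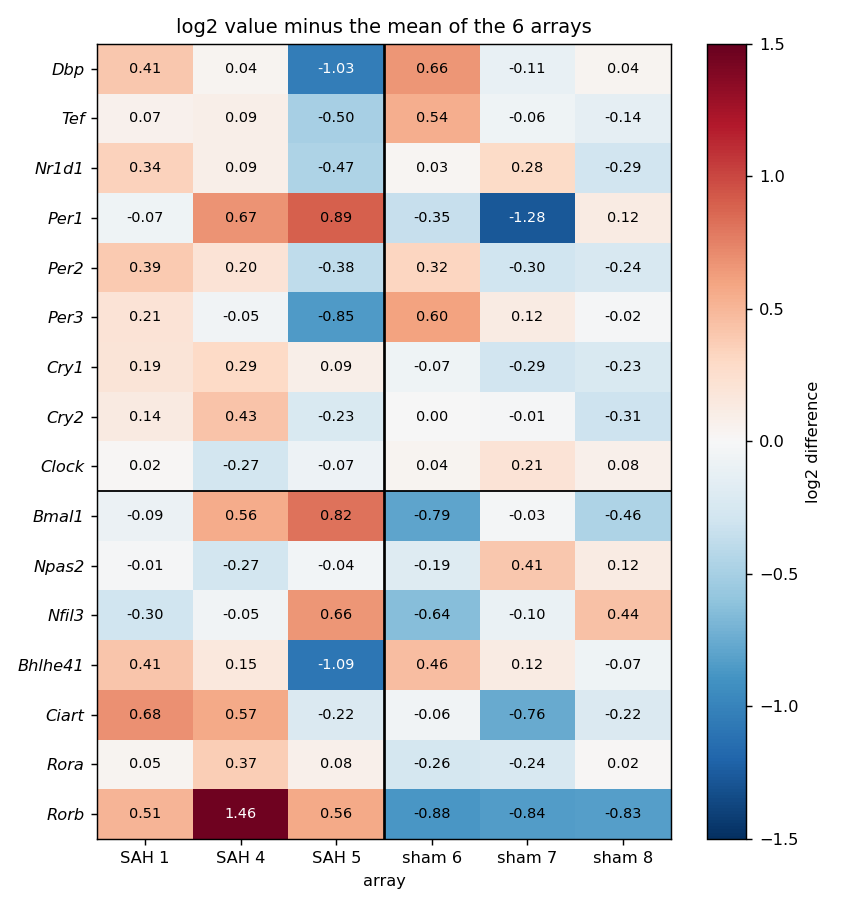
Log2 value of each gene on each array minus its mean over the 6 arrays, for the 9 clock members (above the line) and 7 other clock genes (below it), with SAH arrays left of the vertical line and sham arrays right of it. In SAH array 5 Dbp stands at -1.03 and Bmal1 at 0.82, and in sham array 6 they stand at 0.66 and -0.79.

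Ciart, which encodes a repressor of CLOCK and BMAL1, holds 3 E-boxes in its window (chr2:186112197-186112496, minus strand), beginning 93, 35 and 21 bases before the start.
Ciart: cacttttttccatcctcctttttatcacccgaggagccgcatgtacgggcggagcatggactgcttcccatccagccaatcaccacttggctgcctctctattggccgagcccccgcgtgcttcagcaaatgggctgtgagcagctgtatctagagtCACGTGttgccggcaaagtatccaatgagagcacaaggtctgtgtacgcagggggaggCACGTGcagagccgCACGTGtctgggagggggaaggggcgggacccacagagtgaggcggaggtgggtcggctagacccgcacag
Ciart read 8.74, 8.63 and 7.84 in SAH arrays 1, 4 and 5, against 8.00, 7.30 and 7.84 in sham arrays 6, 7 and 8. SAH arrays 1 and 4 lay above all sham arrays, and SAH array 5 lay within them. Its difference was 0.69 ± 0.28 (SE; 95% interval 0.02 to 1.35; limma adjusted p = 0.333). The windows of Dbp, Per1, Per3 and Clock held none of these letters. The Per1 window (chr10:54304126-54304425, plus strand) lay well inside the gene (chr10:54299002-54313804), so it does not describe the sequence before Per1. The Ciart window also lay inside its gene. A gene can have further starts with windows not read here, the absence says nothing of sites elsewhere, and a match is a description, not a measured site.

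Among 25 further genes of the clock pathway 18 were measured, of which 1 rose (Rorb), none fell and 17 did not pass, where 0.963% of all genes rose. At an unadjusted limma p under 0.05 there were 5, all higher (Rorb, Nampt, Bmal1, Rora and Ciart), where 18.6% of all genes passed and 8.16% passed upward. The same shares stand beside the unadjusted counts of the lists below. Rorb encodes a ROR receptor, of the family that activates Bmal1. It read 8.90, 9.85 and 8.95 in SAH arrays 1, 4 and 5, against 7.51, 7.55 and 7.56 in sham arrays 6, 7 and 8. The sham arrays agreed closely with each other near the array medians, and every SAH array was above all of them. Rorb rose 3.22-fold, to 9.23 ± 0.53 in SAH against 7.54 ± 0.03 in sham arteries (SD, n = 3 each), a difference of 1.69 ± 0.25 (SE; limma adjusted p = 0.0416). The call ended with array medians subtracted (adjusted p = 0.0515) and without SAH array 5 (0.1002), sham array 6 (0.207), sham array 7 (0.178) or sham array 8 (0.123), with differences of 1.38 to 1.86 over all alternatives.

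Nampt, whose enzyme makes the NAD precursor that couples metabolism to the clock, read 11.30, 12.10 and 12.28 in SAH arrays 1, 4 and 5, against 10.31, 10.49 and 10.51 in sham arrays 6, 7 and 8. Every SAH array lay above every sham array, by a difference of 1.46 ± 0.25 (SE), yet its limma adjusted p of 0.0640 did not pass. It passed with dim probe sets left out (0.0269), with eBayes trend and robust options (0.0442), with array weights (0.0299) and without SAH array 1 (0.00359). Without any other array it did not, at 0.201 (SAH array 4), 0.170 (SAH array 5), 0.259 (sham array 6), 0.222 (sham array 7) and 0.149 (sham array 8). Rora, the related ROR gene, differed by 0.33 ± 0.13 (SE; limma adjusted p = 0.327), with no overlap between groups.

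None of the kinases, ubiquitin ligase parts and cofactors that time PER and CRY turnover passed the threshold. Differences were -0.066 ± 0.092 (SE) for Csnk1d and -0.0082 ± 0.089 for Csnk1e, the casein kinases that phosphorylate PER, and -0.20 ± 0.094 for Csnk2a1. They were -0.27 ± 0.12 for Btrc and 0.10 ± 0.099 for Fbxw11, which mark PER for degradation, 0.020 ± 0.10 for Gsk3b and 0.072 ± 0.092 for the PER cofactor Nono. Among transcription factors they were -0.22 ± 0.17 for Npas2, -0.0030 ± 0.11 for Bhlhe40, -0.35 ± 0.38 for Bhlhe41, 0.20 ± 0.33 for Nfil3 and -0.13 ± 0.27 for the coactivator Ppargc1a, and Timeless stood at -0.099 ± 0.097. None of these 13 genes passed. Csnk2a1 and Btrc had every SAH value below every sham value, as Clock did, at unadjusted limma p of 0.0679 and 0.0541. They were 2 of the 18 other clock genes to do so, where 15.4% of all genes did. Csnk1d, Csnk1e, Csnk2a1 and Nono ranked low in within-group SD, at percentiles 5.98, 2.43, 8.13 and 5.10 of all genes.

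Genes that clocks drive in many tissues were read beside the members. Of 9 in that list 8 were measured and none was called (1 at an unadjusted limma p under 0.05, Thbd), with a median difference of -0.0051. Thbd, the anticoagulant receptor thrombomodulin, differed by 0.40 ± 0.15 (SE), Tspan4 by -0.16 ± 0.15, Usp2, a deubiquitinase, by -0.19 ± 0.20 and Fmo2 by -0.41 ± 0.45. Usp2, Tspan4, Wee1 and Por had their lowest value in SAH array 5, as 22.5% of all genes did. The other measured outputs did not: Fmo2 and Tsc22d3 were lowest in SAH array 1, and Lonrf3 and Thbd in sham array 7. Thbd had its highest value in SAH array 5.

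Per1 is also a direct target of the glucocorticoid receptor and of CREB, so lists of such targets were read on the same arrays. Of 14 measured glucocorticoid targets, Per1 among them, none was called (1 at an unadjusted limma p under 0.05, Per1 itself). Of their differences 13, that of Per1 included, were above 0, where 8599 of all 18166 genes were. Their median was 0.30, against -0.013 over all genes. The list mean was 10.75, 11.30 and 11.04 in SAH arrays 1, 4 and 5, against 10.74, 10.48 and 11.02 in sham arrays 6, 7 and 8, so the groups overlapped. Sgk1, an ion transport kinase, differed by 0.44 ± 0.20 (SE), Sult1a1 by -0.73 ± 0.38 and Klf9 by 0.28 ± 0.15. Of the 13 targets other than Per1, 5 (Fkbp5, Sgk1, Klf9, Dusp1 and Ddit4) had their lowest value in sham array 7, as Per1 did, where 11.4% of all genes had theirs. Nr3c1, the glucocorticoid receptor gene, read 10.31, 10.86 and 10.66 in SAH arrays 1, 4 and 5, against 10.12, 10.24 and 10.03 in sham arrays 6, 7 and 8. Its groups did not overlap, but the difference of 0.48 ± 0.16 (SE) did not pass (limma adjusted p = 0.232).

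Hsd11b1 and Hsd11b2, which interconvert active and inactive glucocorticoid, differed by 0.037 ± 0.12 (SE) and 0.019 ± 0.11. Hmox1, which breaks down haem, the ligand of REV-ERB proteins, differed by -0.51 ± 0.33. None of these 4 genes was called (1 at an unadjusted limma p under 0.05, Nr3c1). Among 13 measured immediate early and CREB target genes none was called either (1 at an unadjusted limma p under 0.05, Sik1), with a median of 0.13. Sik1, a kinase induced by CREB that limits light resetting of the clock in mouse brain, read 10.77, 11.26 and 11.71 in SAH arrays 1, 4 and 5, against 10.13, 9.85 and 10.58 in sham arrays 6, 7 and 8. As for Per1, its highest value was in SAH array 5 and its lowest in sham array 7, and here the groups did not overlap, with a difference of 1.06 ± 0.28 (SE; limma adjusted p = 0.157). Fos differed the other way, by -1.04 ± 0.45, Egr1 by -0.43 ± 0.25 and Nr4a3 by 0.75 ± 0.38.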

How the data were processed

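Total RNA from 3 SAH and 3 sham samples was hybridised to 6 arrays. The submitters' processing notes name RMA (background correction, quantile normalization and a summary of each probe set) and Affymetrix Expression Console 1.1.2. The values deposited by the authors are log2 expression values, used as they stood. RMA understates differences of dim and very bright genes, and the number of arrays limits the precision.

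Of 36685 probe sets 190 controls were left out and 36495 tested. GEO's platform annotation, with symbols updated through NCBI RefSeq (GRCr8), gave 1 gene for 18511, several for 575 and none for 17409. SAH minus sham was fitted with limma 3.58.1 in R 4.3.3 (lmFit, eBayes, two-sided, no covariate, Benjamini-Hochberg over all probe sets), which was tested on simulated data. Named were all members and clock genes, and, of each further pathway list, any called gene and up to 4 by p. Of cell markers, named by rule from the 3 brightest of a list, the text gives mainly list means. Members and lists were chosen with earlier results of these data known. Genes singled out by array were chosen after their values were seen. Alternatives were repeated quantile normalization, array medians subtracted, dim probe sets left out (kept if above the array median on at least 3 arrays), array weights, eBayes with its trend and robust options, each array left out, the mean over a gene's probe sets, and an adjusted p under 0.10. Promoters are RefSeq windows.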

Additional observations from a re-analysis of the deposited data

How the results depend on the processing

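Under 12 alternative settings the count of called members stayed at 0, as it did at an adjusted p under 0.10. Leaving out dim probe sets, the eBayes options and the mean over a gene's probe sets could not change a member's difference, only its p. Each member had 1 probe set, and none was dim. Of 108 recomputed member differences, these unchanged ones included, 104 kept their direction, and none passed the threshold. The others changed sign with 1 array left out: Per2 stood at -0.022 without SAH array 1, Dbp at 0.032 and Nr1d1 at 0.21 without SAH array 5, and Nr1d1 at 0.12 without sham array 7. With each array left out in turn, Per2 ran from -0.022 to 0.37, Dbp from -0.69 to 0.032, Nr1d1 from -0.19 to 0.21, the members' median from -0.19 to 0.21, and the members without overlap from 2 to 4, where fewer arrays make overlap rarer (43.2% of all genes without overlap in the fit that gave 4). The count of other clock genes called was 1, and ran from 0 to 2 with an array left out. It was 0 with array medians subtracted, and 2 (Rorb and Nampt) with dim probe sets left out, with eBayes trend and robust options, with array weights and at an adjusted p under 0.10. The Smtn difference kept its direction throughout, and its call ended in 4 of 12 alternatives, each with 1 array left out. Over all genes 235 were called, and between 29 and 672 under the alternatives. Beyond the arrays left out and the fewer probe sets tested, the cause was not tested. No paired analysis was possible because the groups share no replicate numbers. With 3 arrays in a group, differences as small as most of those seen here could be missed for genes of this spread.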
